A study of Mus musculus with 8 samples.

Results

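Glo1, Alad, Acp1 and Tmem181a are 4 of the 32285 genes counted in nuclei of the mouse striatum, and they were chosen because their RNA falls into high and low sets of inbred strains. They were chosen by their strain levels in Drd1+ neurons, known from earlier results of the same counts. The strain values in that cluster are therefore given as a description, without a test. The question followed here is whether the strain pattern of each gene recurs in the other cell clusters that the authors annotated.

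Nuclei came from the striatum of 32 mice aged 12 weeks, 4 mice of each of 8 inbred strains. The classical laboratory strains were C57BL/6, NZO/HlLtJ, A/J, NOD/ShiLtJ and 129S1/SvImJ, and the wild-derived ones were WSB/EiJ, PWK/PhJ and CAST/EiJ. The labels name no treatment and no engineered allele, so the groups are described by genetic background alone. The deposited table writes C57BL/6NJ and the labels write C57BL/6J, so the substrain is left as C57BL/6. Nuclear RNA and open chromatin were read from the same nuclei with the 10x Genomics Multiome assay, in 4 batches. Within a batch the 8 mice, 1 per strain, were pooled as nuclei and loaded together. A mouse is therefore named here by its strain and batch, and its nuclei were assigned to the strain by genotype. Each batch held 4 male and 4 female mice, and the sex of a given mouse is not named in the sources used here.

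All 4 genes encode proteins of basic cell metabolism or membranes. Glo1 encodes glyoxalase 1, which removes methylglyoxal, a reactive by-product of glycolysis, together with glutathione and the second glyoxalase Hagh. Alad encodes aminolevulinate dehydratase, an early enzyme of the heme pathway that joins aminolevulinate into porphobilinogen. Acp1 encodes the low-molecular-weight protein tyrosine phosphatase, which removes phosphate from receptor tyrosine kinases and other tyrosine-phosphorylated proteins. Tmem181a encodes a membrane protein with a GOLD domain and a bundle of transmembrane helices. Glo1 and Alad lie in chromosome segments known to vary in copy number among laboratory mouse strains, and copy number was not analysed here.

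In build GRCm38, Glo1 spans chr17:30592861-30612659 on the minus strand, Alad chr4:62505984-62520063 on the minus strand, Acp1 chr12:30893326-30911619 on the minus strand and Tmem181a chr17:6256726-6308314 on the plus strand. The authors' list of 291715 accessible regions, made over all batches together, holds 6 regions that overlap Glo1, 5 that overlap Alad, 1 that overlaps Acp1 and 8 that overlap Tmem181a. The 250 bases upstream of annotated starts are given because an accessible region overlaps each Glo1, Acp1 and Tmem181a window (all of the Acp1 and first Tmem181a windows, part of the others), while no region overlaps the Alad window or that of the second annotated Alad start, inside the gene, which is not printed. They come from RefSeq (GRCm38.p6) and hold the reference sequence, not that of each strain. Capitals mark, on either strand, a CCAAT box (CCAAT), a GC box (GGGCGG) or an E-box (CACGTG). The windows are chr17:30612660-30612909 (minus strand) for Glo1, chr4:62520064-62520313 (minus strand) for Alad and chr12:30911613-30911862 (minus strand) for Acp1. Tmem181a has a first start with the window chr17:6256610-6256859 and an internal start with the window chr17:6270220-6270469, both on the plus strand. The first Tmem181a start (6256860) and the Acp1 start (30911612) lie inside the gene spans given above, so part of each window does too.
Glo1: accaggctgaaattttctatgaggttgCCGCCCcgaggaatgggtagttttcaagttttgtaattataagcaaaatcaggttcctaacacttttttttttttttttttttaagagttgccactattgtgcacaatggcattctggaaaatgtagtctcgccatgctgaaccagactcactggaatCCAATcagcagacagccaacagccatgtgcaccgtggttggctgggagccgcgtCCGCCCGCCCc
Alad: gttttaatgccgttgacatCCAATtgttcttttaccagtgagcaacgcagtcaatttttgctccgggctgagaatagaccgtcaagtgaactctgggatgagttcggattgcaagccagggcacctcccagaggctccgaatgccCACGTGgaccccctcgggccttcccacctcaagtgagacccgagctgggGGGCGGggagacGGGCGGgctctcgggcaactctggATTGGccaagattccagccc
Acp1: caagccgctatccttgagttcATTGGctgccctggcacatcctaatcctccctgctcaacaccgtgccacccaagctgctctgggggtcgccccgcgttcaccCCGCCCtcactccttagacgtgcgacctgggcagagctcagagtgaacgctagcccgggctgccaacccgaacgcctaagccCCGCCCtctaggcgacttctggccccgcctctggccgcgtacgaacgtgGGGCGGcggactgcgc
Tmem181a, first start: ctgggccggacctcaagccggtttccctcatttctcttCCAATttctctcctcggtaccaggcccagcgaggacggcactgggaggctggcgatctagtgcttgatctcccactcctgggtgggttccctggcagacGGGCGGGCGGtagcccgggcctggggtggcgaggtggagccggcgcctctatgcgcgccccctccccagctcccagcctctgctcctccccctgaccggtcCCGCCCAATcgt
Tmem181a, internal start: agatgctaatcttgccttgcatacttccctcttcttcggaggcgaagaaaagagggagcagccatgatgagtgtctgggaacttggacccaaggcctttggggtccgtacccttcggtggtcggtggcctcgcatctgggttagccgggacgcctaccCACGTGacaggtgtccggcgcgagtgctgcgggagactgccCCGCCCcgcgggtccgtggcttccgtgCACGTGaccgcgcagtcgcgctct
Every printed window held at least 1 GC box, a motif in 32.7% of the 32851 RefSeq promoter windows of this length. All but the window of the internal Tmem181a start held a CCAAT box, which 33.8% of the windows hold. The E-box, found in 6.02% of windows, was present in the printed Alad window and was found 2 times upstream of the internal Tmem181a start. In the first Tmem181a window a GC box and a CCAAT box overlap. Neither TATAAA (12.4% of windows) nor GCGCATGC, the core of the NRF1 motif (2.26%), was found in these 5 windows. The window of the second Alad start, which overlaps the printed one in part, held an E-box of its own, a CCAAT box and 6 GC boxes. A match describes the letters only and says nothing about binding.

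The count tables held 89339 barcodes, of which 55672 were nuclei annotated by the authors in 18 clusters, with 944 to 4416 nuclei per mouse. The median annotated nucleus had 4329 unique molecular identifiers (UMIs), and batch 3 was the shallowest, with a median of 3232 against 4593 to 4931 in the other batches. Counts were summed per mouse and cluster, giving 1710451 to 9416806 counts per mouse in Drd1+ neurons, 165465 to 1883033 in oligodendrocytes, 38252 to 1085998 in astrocytes and 27325 to 365425 in macrophages. The second Drd1+ cluster had 115071 to 401617 counts per mouse. Of the annotated nuclei, 3048 (5.47%) carried a barcode sequence that was also present in another batch. Summed markers of Drd2+ neurons, oligodendrocytes, astrocytes, macrophages and endothelium were each highest in the cluster of that name. Summed mural markers were higher in endothelium than in the mural cluster (2121 against 1587 counts per 1e+06, CPM). Of these Rgs5 was higher in endothelium (1854 against 403 CPM), while Pdgfrb, Abcc9 and Kcnj8 were higher in the mural cluster. Summed Nxph1+ interneuron markers were highest in Sst+ interneurons, as were Sst, Npy and Nos1, while Nxph1, Kit and Pvalb were highest in Nxph1+ interneurons. Summed Drd1+ neuron markers were higher in the second than in the main Drd1+ cluster (812 against 604 CPM). Of these Tac1 was higher there (612 against 310 CPM), while Drd1, Pdyn and Isl1 were lower. The second Drd1+ cluster had Otof at 220 CPM, Casz1 at 132 and Col11a1 at 218, against 12.9, 1.03 and 3.24 in the main Drd1+ cluster, and Isl1 at 1.24 against 23.6. Levels below are CPM after scaling for library composition (TMM), given per mouse in the order of batches 1 to 4 and as mean ± SD of 4 mice of a strain. Counts of nuclei with unlike RNA content were not separated, so less RNA of a gene per nucleus and fewer nuclei expressing it cannot be told apart in these sums.

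For each gene the high and low sets were split at the widest gap between log2 strain means in Drd1+ neurons. Counts of mice above or below the other set in that cluster therefore follow in part from the split. Glo1 was highest in Drd1+ neurons of A/J and CAST/EiJ. The A/J mice measured 32.2, 34.2, 40.0 and 30.5 CPM (34.2 ± 4.16) and the CAST/EiJ mice 36.8, 35.7, 35.5 and 27.6 CPM (33.9 ± 4.22). The strain just outside this high set was 129S1/SvImJ, with 28.9, 26.3, 27.2 and 21.7 CPM (26.0 ± 3.05). The other 5 strains had means from 16.8 ± 1.30 CPM in C57BL/6 to 20.8 ± 3.72 CPM in WSB/EiJ. Of the 8 mice of A/J and CAST/EiJ, 7 were above all 24 mice of the other strains, and the exception was the CAST/EiJ mouse of batch 4. The highest strain mean was 2.04 times the lowest, the narrowest span of the 4 genes.

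Alad had low counts, and the mice of its high and low sets overlapped. A/J was highest, with 11.7, 11.7, 23.4 and 17.2 CPM (16.003 ± 5.59), followed by NZO/HlLtJ with 13.8, 11.05, 13.6 and 10.7 CPM (12.3 ± 1.66). NOD/ShiLtJ (8.73 ± 1.48) and 129S1/SvImJ (8.56 ± 3.14) completed the high set. The first strain outside it was PWK/PhJ at 5.88 ± 1.65 CPM, and CAST/EiJ was lowest, with 5.78, 3.86, 5.37 and 2.03 CPM (4.26 ± 1.70). The 16 mice of the high set ran from 4.31 to 23.4 CPM and the 16 of the low set from 2.03 to 8.16 CPM, so the sets overlapped, and 13 high mice were above all low ones. CAST/EiJ, in the high set for Glo1, was the lowest strain for Alad.

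Acp1 split the strains with no overlap. 129S1/SvImJ mice measured 108, 106, 135 and 111 CPM (115 ± 13.6), C57BL/6 mice 108, 103, 139 and 98.5 CPM (112 ± 18.4) and A/J mice 105, 104, 125 and 87.1 CPM (105 ± 15.3). The next strain was PWK/PhJ, with 29.2, 32.4, 29.3 and 32.7 CPM (30.9 ± 1.90). WSB/EiJ was lowest, with 15.8, 19.1, 13.9 and 12.1 CPM (15.2 ± 2.98). NZO/HlLtJ (24.2 ± 2.13), NOD/ShiLtJ (21.4 ± 2.70) and CAST/EiJ (16.7 ± 3.58) lay between them. All 12 mice of the 3 high strains (87.1 to 139 CPM) were above all 20 mice of the others (12.1 to 32.7 CPM), and this held within each of the 4 batches. The strain term was called in 61.7% of all genes tested in Drd1+ neurons, so strain differences are common there, and nothing is read from the fact that the chosen genes show them.

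Tmem181a had the widest span, 9.96 times between the highest and the lowest strain mean. 129S1/SvImJ was highest, with 196, 204, 257 and 203 CPM (215 ± 28.1). NOD/ShiLtJ (147 ± 15.99), NZO/HlLtJ (139 ± 27.5), A/J (127 ± 9.87), C57BL/6 (93.9 ± 18.9) and CAST/EiJ (74.8 ± 14.6) followed. The low set was PWK/PhJ, with 26.1, 31.7, 38.5 and 32.7 CPM (32.3 ± 5.07), and WSB/EiJ, with 17.9, 18.1, 30.0 and 20.4 CPM (21.6 ± 5.72). The 24 mice of the high set (60.1 to 257 CPM) were all above the 8 of the low set (17.9 to 38.5 CPM). In each of the 8 strains the mouse of batch 3, the shallowest batch, was the highest of its 4, and the part of depth in this was not tested. No pair of the 4 genes shared its high set.

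**Figure D1:**
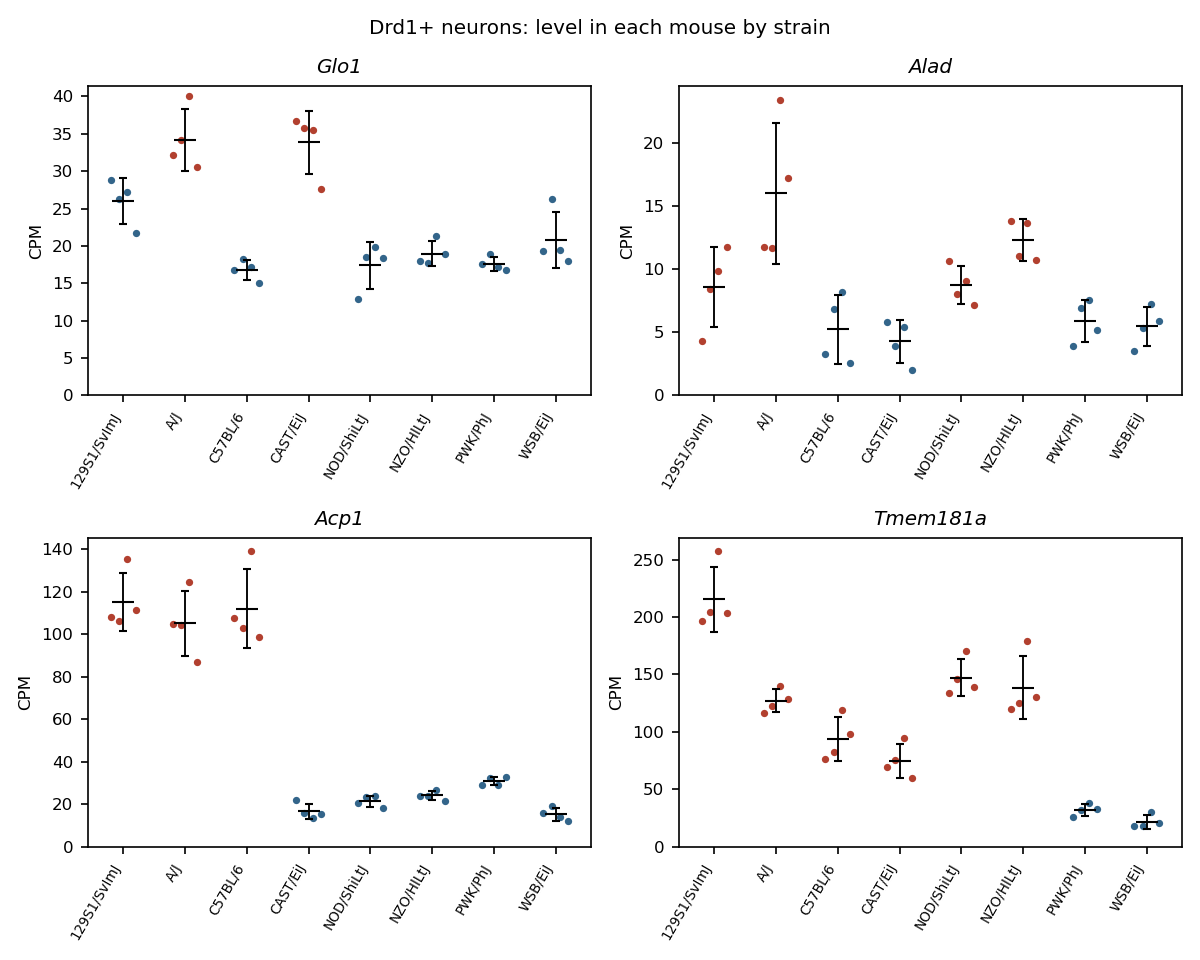
Levels of Glo1, Alad, Acp1 and Tmem181a (y axes, CPM, each from 0) in Drd1+ neurons of the 8 strains (x axes); points are the 4 mice of a strain, bars the mean ± SD, red the strains of the high set and blue those of the low set. The Acp1 high set spans 87.1 to 139 CPM and the low set 12.1 to 32.7 CPM, while the Alad sets overlap between 4.31 and 8.16 CPM.

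The other clusters hold other nuclei, which the choice of the genes did not use, and strain differences were tested there in edgeR over all genes of a cluster. These nuclei come from the same mice by which the genes were chosen. A called strain term thus reports a difference in those nuclei and is not independent evidence that the genes vary by strain. The neighbours most like Drd1+ neurons are Drd2+ neurons, the other large class of striatal projection neurons, which express the D2 dopamine receptor. In Drd2+ neurons all 4 genes differed among strains, where 55.9% of all genes tested were called. Acp1 was again separated without overlap: 12 mice of the high strains had 82.5, 103 and 119 CPM as lowest, median and highest, and 20 mice of the low strains 7.88, 21.5 and 28.4 CPM (edgeR adjusted p = 1.1e-28). Tmem181a had 59.1, 116 and 250.4 CPM in the 24 mice of its high strains against 13.2, 21.9 and 32.1 CPM in its 8 low ones, also without overlap (edgeR adjusted p = 1.5e-29). C57BL/6 led for Acp1 in this cluster (107 ± 8.29 CPM) in place of 129S1/SvImJ (101 ± 11.9 CPM).

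Glo1 in Drd2+ neurons was 34.6 ± 2.71 CPM in CAST/EiJ and 31.2 ± 3.00 CPM in A/J. Its lowest strain was NOD/ShiLtJ at 17.5 ± 2.05 CPM (edgeR adjusted p = 4.7e-07). The 8 mice of the high strains ran from 28.4 to 38.0 CPM and the other 24 from 12.0 to 35.8 CPM, the highest of these being the 129S1/SvImJ mouse of batch 3. Alad had its highest mean in A/J, at 13.2 ± 2.26 CPM, and its lowest in C57BL/6, at 4.43 ± 1.24 CPM (edgeR adjusted p = 1.4e-06). Its high and low sets had medians of 11.3 and 6.23 CPM and overlapped. The high strain 129S1/SvImJ (7.37 ± 3.07 CPM) was close to the low strain WSB/EiJ (7.32 ± 1.29 CPM).

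Oligodendrocytes, the myelin-forming cells, showed the Glo1 pattern and little of the Acp1 pattern. Glo1 there measured 73.9, 103, 82.8 and 114 CPM in A/J (93.4 ± 18.3) and 67.8, 89.0, 65.8 and 97.9 CPM in CAST/EiJ (80.1 ± 15.8). C57BL/6 was lowest, with 47.6, 49.7, 34.6 and 57.6 CPM (47.4 ± 9.54), and the strain term was called (edgeR adjusted p = 7.8e-06). The oligodendrocyte strain term was called in 34.8% of the genes tested. The 129S1/SvImJ mice, just outside the Glo1 high set in Drd1+ neurons, averaged 77.4 ± 12.3 CPM, close to CAST/EiJ. The mouse of batch 3, the shallowest batch, was the lowest for Glo1 in every strain but A/J and NZO/HlLtJ. It had 23.7 CPM in PWK/PhJ and 18.6 CPM in WSB/EiJ, and the part of depth in this was not tested.

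Acp1 in oligodendrocytes had a narrow strain span. A/J mice measured 51.0, 35.7, 36.1 and 35.6 CPM (39.6 ± 7.61), C57BL/6 mice 31.0, 51.3, 23.0 and 37.5 CPM (35.7 ± 12.0) and 129S1/SvImJ mice 27.7, 31.4, 44.8 and 35.5 CPM (34.8 ± 7.37). PWK/PhJ averaged 30.1 ± 7.11 CPM and WSB/EiJ, again lowest, 22.5 ± 12.3 CPM. The 12 mice of the high strains and the 20 of the low strains overlapped, with medians of 35.6 and 26.7 CPM, and the strain term was not called (edgeR adjusted p = 0.0745). Alad was not called in oligodendrocytes either (edgeR adjusted p = 0.354), with the lowest strain mean in WSB/EiJ, at 9.29 ± 3.01 CPM, and the highest in NOD/ShiLtJ, at 18.8 ± 8.49 CPM.

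Tmem181a differed among strains in oligodendrocytes, with a narrower span than in neurons. It was highest in 129S1/SvImJ, with 34.3, 38.6, 73.0 and 46.7 CPM (48.1 ± 17.3), and lowest in WSB/EiJ, with 18.9, 14.1, 33.1 and 9.71 CPM (19.0 ± 10.2). The highest mean was 2.54 times the lowest, and the strain term was called (edgeR adjusted p = 0.000131). PWK/PhJ, in the low set in neurons, measured 20.5, 22.0, 65.1 and 43.6 CPM (37.8 ± 21.0), so its mice overlapped those of the high strains.

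In astrocytes, which take up glutamate at synapses, 3 of the 4 genes differed among strains. Acp1 measured 72.4, 76.2, 86.5 and 62.4 CPM in A/J (74.4 ± 9.96), 65.8 ± 21.9 CPM in C57BL/6 and 53.3 ± 14.97 CPM in 129S1/SvImJ. The other 5 strains had means from 19.4 ± 7.86 to 24.9 ± 5.68 CPM. Of the 12 mice of the high strains 9 were above all 20 others, and the strain term was called (edgeR adjusted p = 4.4e-09) in a cluster where 21.5% of genes were. Glo1 was highest in A/J at 94.1 ± 18.2 CPM and lowest in PWK/PhJ at 43.1 ± 23.0 CPM (edgeR adjusted p = 0.00194). Tmem181a was 39.5 ± 9.69 CPM in 129S1/SvImJ and 8.68 ± 4.55 CPM in WSB/EiJ (edgeR adjusted p = 0.00151). Its high and low sets were not kept apart in astrocytes. The high strains A/J and CAST/EiJ had fitted log2 values of -0.48 and -0.29 from the mean of strains, below the low strain PWK/PhJ at -0.06. Alad was below the count filter in astrocytes, and its sets had medians of 13.4 and 7.49 CPM.

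**Figure D2:**
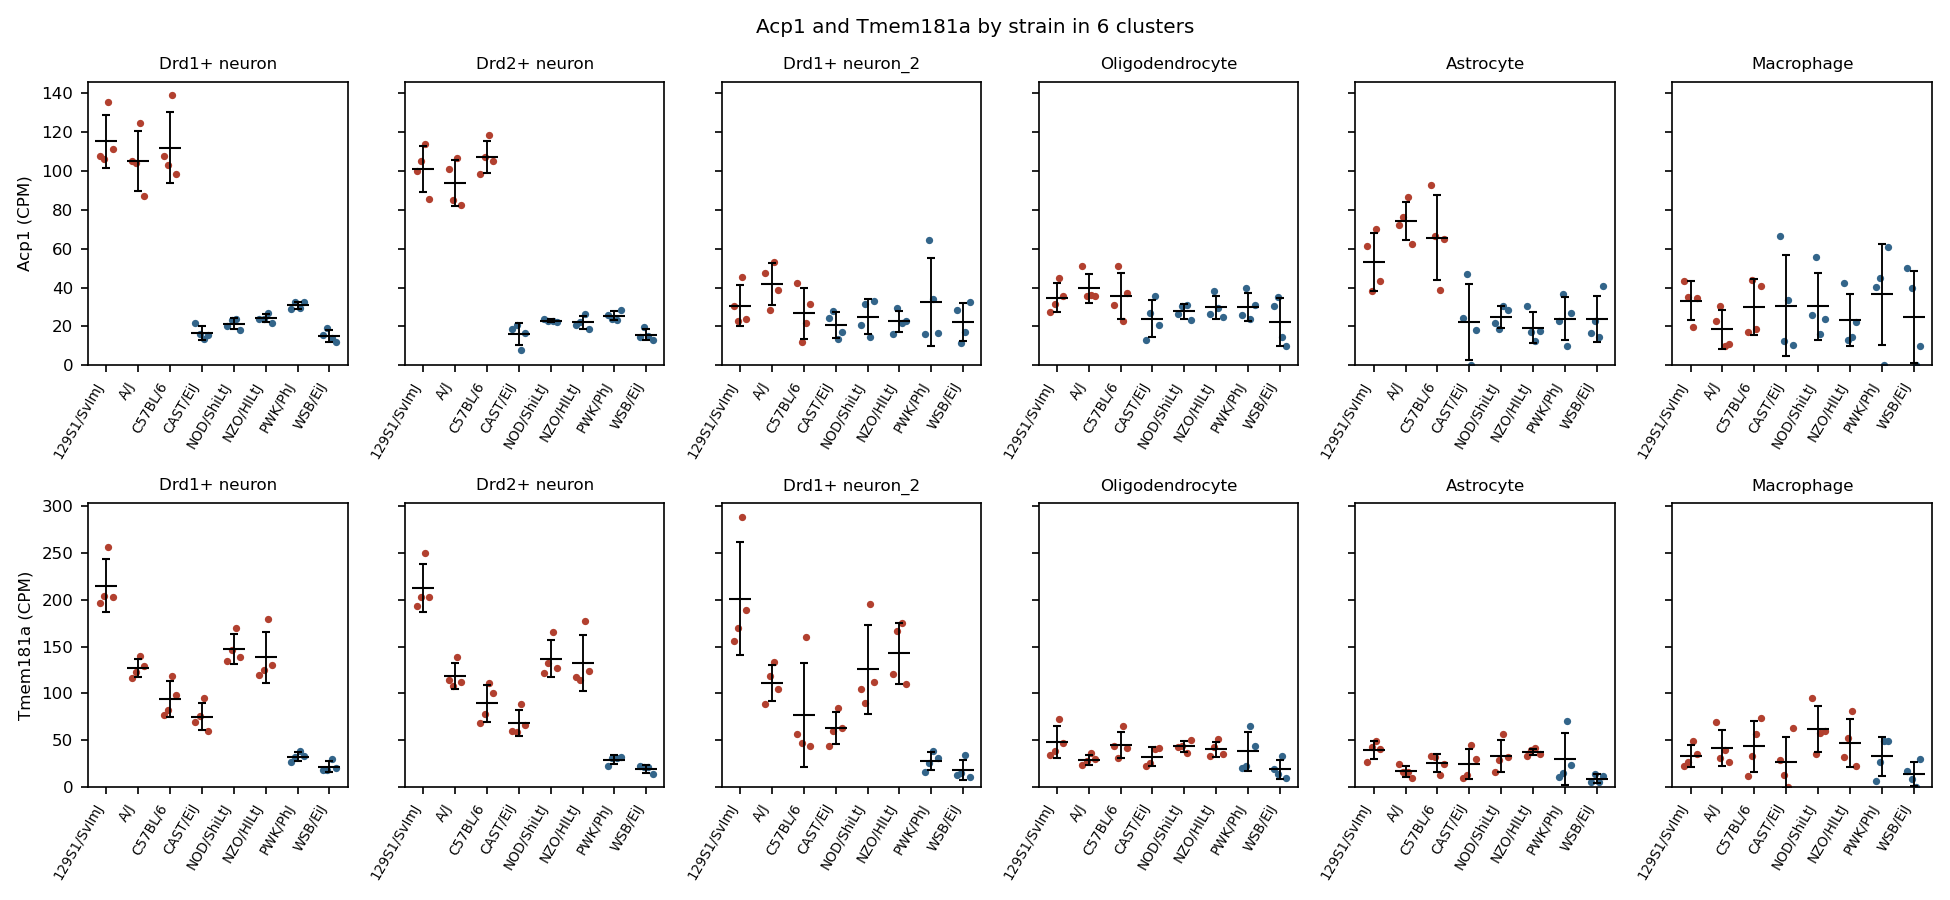
Acp1 (top row) and Tmem181a (bottom row) levels (y axis, CPM, from 0, 1 scale per row) by strain in 6 clusters; points are mice, bars the mean ± SD (lower ends stopped at 0), red the strains of the high set in Drd1+ neurons and blue the others. Red and blue points of Acp1 do not overlap in Drd1+ and Drd2+ neurons and overlap in astrocytes, while its strain means lie between 20.7 and 42.0 CPM in the second Drd1+ cluster, where Tmem181a still runs from 10.9 to 289 CPM.

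Macrophages had few counts of these genes, and of the 4 only Glo1 passed the count filter there. Its strain term was not called (edgeR adjusted p = 0.115, with 24.8% of genes called), and strain means ran from 21.8 ± 21.9 CPM in NOD/ShiLtJ to 82.9 ± 28.4 CPM in A/J. Acp1 in macrophages had medians of 26.7 CPM in its high strains and 24.9 CPM in its low strains. PWK/PhJ, a low strain in neurons, had the highest Acp1 mean there (36.6 ± 26.0 CPM) and A/J, a high strain in neurons, the lowest (18.5 ± 9.98 CPM). Tmem181a had medians of 34.8 and 21.8 CPM in its high and low strains, and Alad 21.6 and 4.11 CPM.

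In the second Drd1+ cluster, with 1506 nuclei, Tmem181a was the only member called. Tmem181a was split there as in the main cluster: 24 mice of the high strains ran from 43.7 to 289 CPM with a median of 111 CPM, and the 8 mice of PWK/PhJ and WSB/EiJ from 10.9 to 38.2 CPM with a median of 20.9 CPM (edgeR adjusted p = 3.4e-18). The strain term was called in 17.3% of genes in this cluster. Acp1 was not called (edgeR adjusted p = 0.739). Its C57BL/6 mice measured 42.6, 11.8, 21.7 and 31.3 CPM (26.9 ± 13.2), its PWK/PhJ mice 16.004, 64.5, 33.9 and 16.7 CPM (32.8 ± 22.7) and its WSB/EiJ mice 28.5, 11.3, 17.1 and 32.7 CPM (22.4 ± 9.87). The highest Acp1 mean was that of A/J, a high strain (42.0 ± 10.9 CPM), and 129S1/SvImJ had 30.6 ± 10.6 CPM. No mouse of the Acp1 high strains was above all of the low ones. The highest low mouse was the PWK/PhJ one at 64.5 CPM, and the next had 33.9 CPM. Glo1 was not called (edgeR adjusted p = 0.989), with strain means between 23.6 and 33.4 CPM, and CAST/EiJ measured 34.0, 17.5, 13.4 and 45.6 CPM (27.6 ± 14.96). Alad did not pass the count filter there, and its sets had medians of 8.15 and 3.78 CPM.

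**Figure D3:**
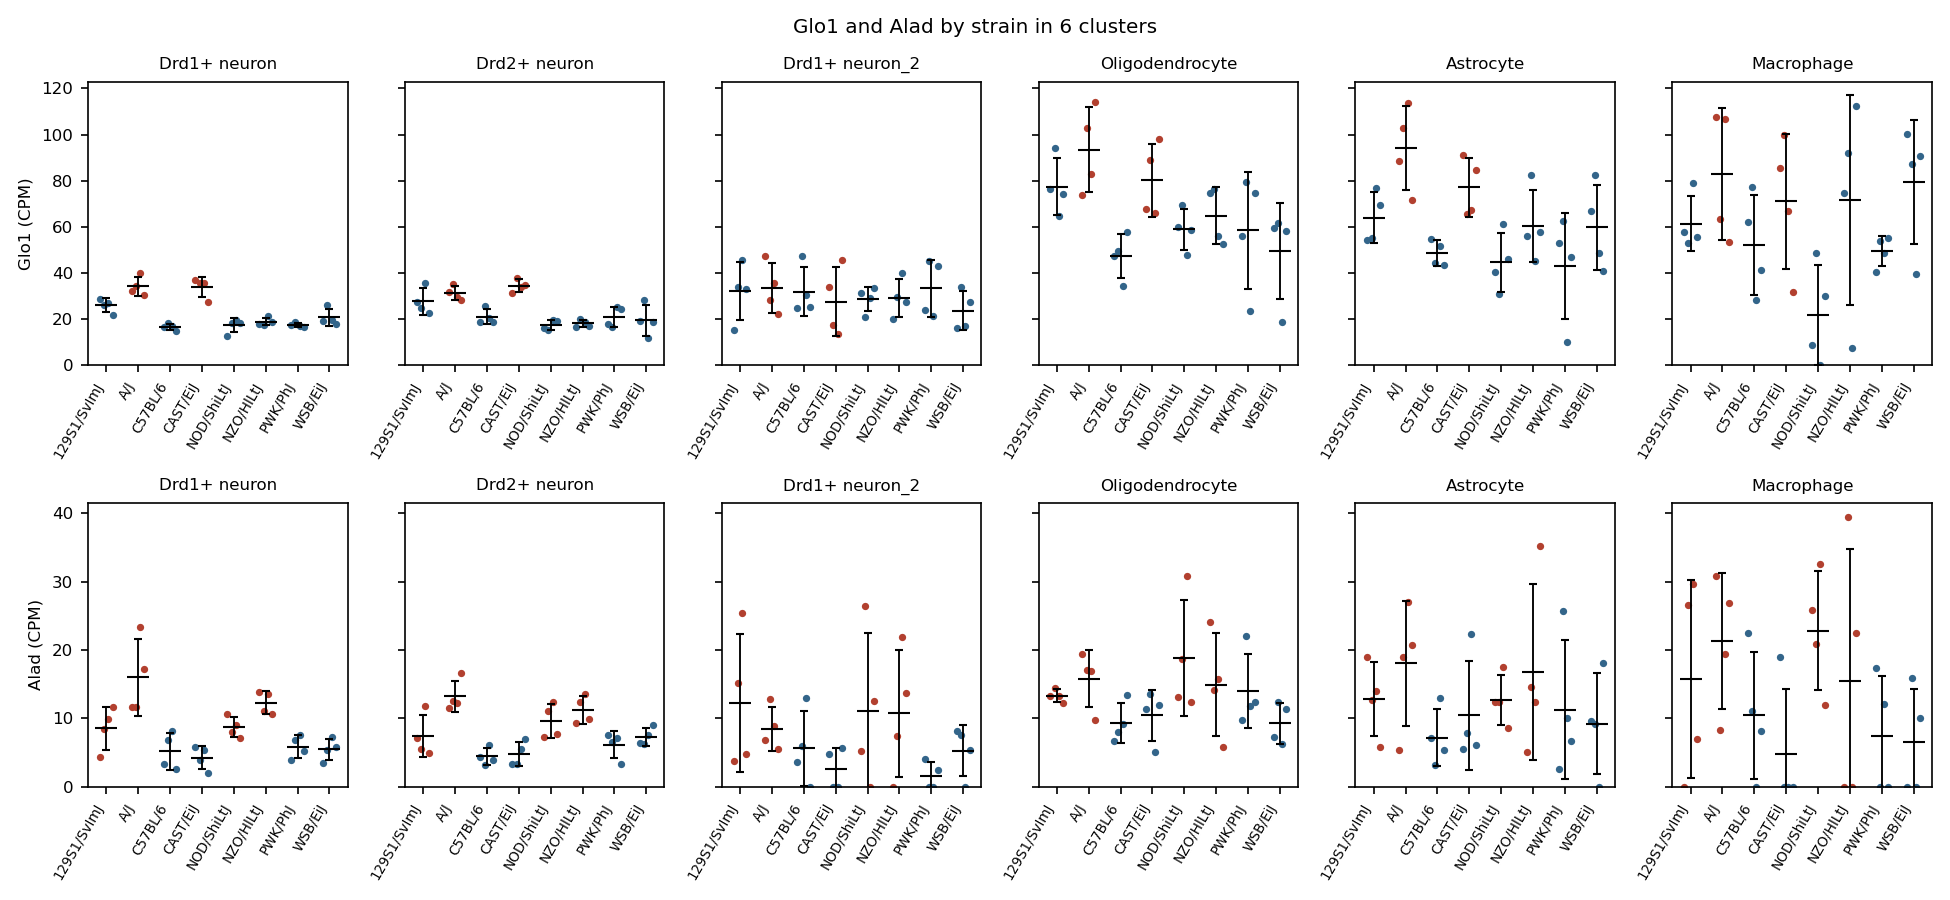
Glo1 (top row) and Alad (bottom row) levels (y axis, CPM, from 0, 1 scale per row) by strain in 6 clusters; points are mice, bars the mean ± SD (lower ends stopped at 0), red the strains of the high set in Drd1+ neurons and blue the others. Glo1 is higher in oligodendrocytes and astrocytes than in neurons for all 8 strains, with A/J highest in both, and its strain means lie between 23.6 and 33.4 CPM in the second Drd1+ cluster.

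In the smaller tested clusters Tmem181a was called in Nxph1+ interneurons and endothelium, and Glo1 in endothelium. In Nxph1+ interneurons Tmem181a was the only member that passed the count filter, with medians of 105 CPM in the high and 26.1 CPM in the low strains (edgeR adjusted p = 0.000173, with 1.53% of genes called). In endothelium, from 29 mice, Tmem181a was 109 ± 58.1 CPM in 129S1/SvImJ and 13.1 ± 3.92 CPM in WSB/EiJ (edgeR adjusted p = 0.00422, with 3.23% of genes called). Its high and low sets were not kept apart there. CAST/EiJ, a high strain, had 14.2 ± 6.60 CPM in 3 mice, close to WSB/EiJ. The low strain PWK/PhJ had 22.2 ± 15.2 CPM, and the other high strains had means from 56.7 to 109 CPM. The endothelial Tmem181a call was lost without batch 1, 2 or 4 (edgeR adjusted p = 0.141, 0.0949 and 0.0583). Endothelial Glo1 was highest in A/J, at 177, 168 and 122 CPM in 3 mice (156 ± 29.3), and lowest in NOD/ShiLtJ at 47.8 ± 24.0 CPM (edgeR adjusted p = 0.0168). It was lost without batch 1 or 2 (edgeR adjusted p = 0.467 and 0.434). Endothelial Acp1 was not called (edgeR adjusted p = 0.120) but was called with no count filter or by DESeq2 (adjusted p = 0.00726 and 0.0371), with medians of 64.0 and 24.7 CPM. Alad was not called (edgeR adjusted p = 0.788). None of the 4 passed the filter in the mixed polydendrocyte and oligodendrocyte cluster, where 10 of 11 mice of the high Acp1 strains were above all 16 low ones (medians 82.4 and 17.9 CPM), and 1.24% of genes were called.

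Whether a strain pattern differed between clusters was then tested directly, as an interaction of strain and cluster with the mouse as a block, between Drd1+ neurons and each of 5 other clusters. The Drd1+ values that enter this test also served to choose the genes, which favours a weaker pattern elsewhere, so it was repeated with Drd2+ neurons, whose nuclei the choice did not use, in place of Drd1+ neurons. Both tests are given for a gene only where it passed the count filter in the other cluster by itself, which leaves out Acp1 and Tmem181a in macrophages and Alad in all but oligodendrocytes and Drd2+ neurons. Between Drd1+ and Drd2+ neurons, where 4.58% of genes were called, the 4 genes had edgeR adjusted p from 0.833 to 0.972. The fitted log2 ratios of Drd2+ to Drd1+ neurons in single strains stayed between -0.25 and 0.13 for Acp1 and between -0.13 and 0.01 for Tmem181a.

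Acp1 had a strain pattern in oligodendrocytes, the second Drd1+ cluster and astrocytes that differed from that of the large projection neuron clusters. In oligodendrocytes its fitted log2 ratio to Drd2+ neurons was -1.80 in C57BL/6, -1.78 in 129S1/SvImJ and -1.47 in A/J, the high strains, and lay between -0.03 in PWK/PhJ and 0.27 in WSB/EiJ in the 5 low strains (edgeR adjusted p = 2.6e-12, with 16.8% of genes called). Against Drd1+ neurons the high strains had -1.99 to -1.70 and the low strains -0.33 in PWK/PhJ to 0.32 in WSB/EiJ (edgeR adjusted p = 3.5e-15, with 16.9% of genes called). Oligodendrocytes of the high strains were thus low relative to projection neurons of the same mice, while those of the low strains were close to them. In the second Drd1+ cluster the log2 ratio to Drd2+ neurons was -2.03 in C57BL/6, -1.87 in 129S1/SvImJ and -1.34 in A/J against -0.09 to 0.32 in the low strains (edgeR adjusted p = 7.7e-08, with 4.35% of genes called). The same test against Drd1+ neurons, with 4.25% of genes called, had edgeR adjusted p = 3.1e-09. In astrocytes the strains were less apart. Their ratio to Drd2+ neurons was -1.36 in 129S1/SvImJ, -1.02 in C57BL/6 and -0.71 in A/J, and the low strains ran from -0.52 in NZO/HlLtJ to 0.22 in WSB/EiJ (edgeR adjusted p = 0.00198, with 11.4% of genes called). That astrocyte call was lost without batch 2 or 4 (edgeR adjusted p = 0.0757 and 0.0987). Against Drd1+ neurons it had edgeR adjusted p = 0.000182, with 11.4% of genes called there too.

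Tmem181a had another strain pattern in oligodendrocytes and astrocytes than in projection neurons. In oligodendrocytes its log2 ratio to Drd2+ neurons was -2.41 in 129S1/SvImJ and -2.24 in A/J against -0.37 in WSB/EiJ and -0.09 in PWK/PhJ (edgeR adjusted p = 1.6e-10). The ratios to Drd1+ neurons in the same strains were -2.43, -2.42, -0.46 and -0.26 (edgeR adjusted p = 9.4e-11). In astrocytes the ratio to Drd2+ neurons ran from -3.19 in A/J to -0.85 in PWK/PhJ (edgeR adjusted p = 0.000634), and that to Drd1+ neurons from -3.26 to -0.97 in the same strains (edgeR adjusted p = 0.000995). In the second Drd1+ cluster no difference was called: single strains had log2 ratios between -0.43 and 0.00 to Drd2+ neurons (edgeR adjusted p = 0.993) and between -0.47 and -0.04 to Drd1+ neurons (edgeR adjusted p = 0.989). Acp1 was called there and Tmem181a was not, and the difference between the genes was not itself tested.

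For Glo1 and Alad no interaction was called. Glo1 had edgeR adjusted p against Drd1+ neurons of 0.557 in oligodendrocytes, 0.914 in astrocytes, 0.483 in macrophages (8.21% of genes called) and 0.308 in the second Drd1+ cluster. Against Drd2+ neurons these were 0.468, 0.742, 0.432 (8.34% of genes called) and 0.667. In oligodendrocytes all 8 strains had Glo1 log2 ratios above 0, from 0.98 to 1.53 over Drd1+ neurons and from 0.95 to 1.56 over Drd2+ neurons, with other strains highest and lowest by each reference. The Glo1 ratio of the second Drd1+ cluster over Drd1+ neurons was -0.50 in CAST/EiJ and -0.20 in A/J, the high strains, between 0.08 (WSB/EiJ) and 0.83 (PWK/PhJ) in the others. Over Drd2+ neurons it was -0.53 and -0.11, against 0.06 (129S1/SvImJ) to 0.59 (NOD/ShiLtJ). Alad in oligodendrocytes had edgeR adjusted p = 0.182 against Drd1+ neurons and 0.456 against Drd2+ neurons. In the second Drd1+ cluster it had 54 counts in all, and no test is given there.

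**Figure D4:**
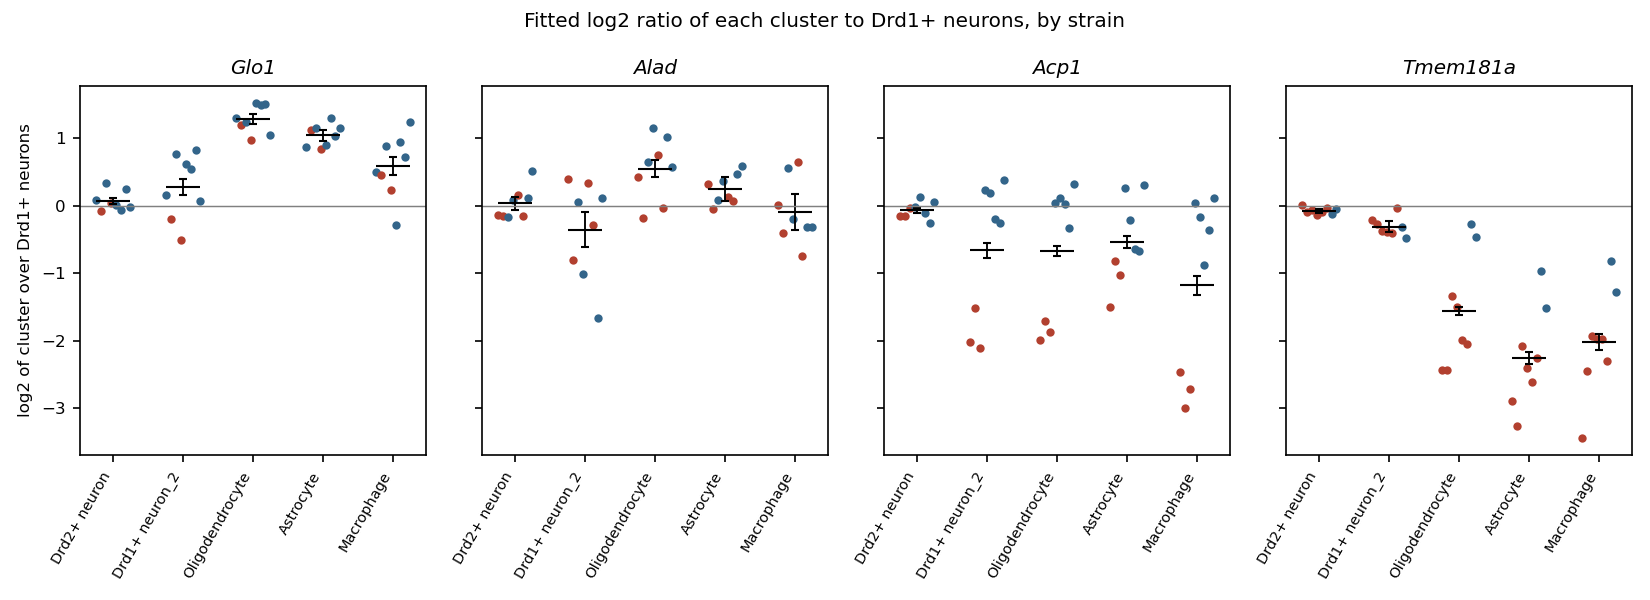
Fitted log2 ratio of each of 5 clusters to Drd1+ neurons (y axis) for the 4 genes; points are strains (red for the high set in Drd1+ neurons, blue for the others), black marks the mean over strains ± SE. In macrophages Alad, Acp1 and Tmem181a, and in astrocytes and the second Drd1+ cluster Alad, did not pass the count filter, and their points there carry no test. In oligodendrocytes the Acp1 points of the 3 high strains lie between -1.99 and -1.70, below all others, whereas the Glo1 points of all strains lie between 0.98 and 1.53.

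Averaged over strains, the genes also differed in level between clusters. Changing the scaling from TMM to plain library totals moved the median log2 ratio of all genes by 0.75 in macrophages, 0.38 in astrocytes, 0.27 in oligodendrocytes, 0.11 in the second Drd1+ cluster and -0.02 in Drd2+ neurons, so levels are read against that shift. Glo1 was higher than in Drd1+ neurons in oligodendrocytes (log2 1.29, SE 0.07, edgeR adjusted p = 1.1e-30), astrocytes (1.048, SE 0.08, adjusted p = 1.1e-25) and macrophages (0.59, SE 0.13, adjusted p = 1.2e-05). By library totals these values were 1.56, 1.43 and 1.34. The share of all genes called higher was 39.6%, 37.6% and 25.8% in these clusters. The mean in oligodendrocytes was 66.3 ± 20.9 CPM over 32 mice against 23.2 ± 7.44 CPM in Drd1+ neurons. In the second Drd1+ cluster Glo1 was higher by log2 0.29 (SE 0.12, edgeR adjusted p = 0.0416, with 15.6% of genes called higher). That call was lost with no count filter (edgeR adjusted p = 0.320) and without batch 2, 3 or 4 (0.153, 0.0888 and 0.380).

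Alad was higher in oligodendrocytes (log2 0.55, SE 0.13, edgeR adjusted p = 5.7e-05), with 13.2 ± 5.51 CPM against 8.30 ± 4.56 CPM. In astrocytes and macrophages, where it did not pass the count filter, the fitted log2 values were 0.25 (SE 0.17) and -0.09 (SE 0.26) with TMM and 0.64 and 0.65 by library totals, so in macrophages the sign turned with the scaling.

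Acp1 and Tmem181a were lower than in Drd1+ neurons in oligodendrocytes, the second Drd1+ cluster and astrocytes, where the Acp1 call depended on the scaling. Acp1 had log2 values of -0.67 in oligodendrocytes (SE 0.07, edgeR adjusted p = 1.2e-13, with 44.6% of genes called lower) and -0.66 in the second Drd1+ cluster (SE 0.11, adjusted p = 4.4e-08, 24%). In astrocytes the Acp1 call (-0.53, SE 0.09, edgeR adjusted p = 5.3e-08, 42% called lower) was lost by library totals (-0.15, adjusted p = 0.122). Since the Acp1 ratio differs among strains, these means pool strains with a ratio near 0 and strains well below it. Tmem181a was lower in astrocytes (-2.25, SE 0.09, edgeR adjusted p = 8.0e-57) and oligodendrocytes (-1.55, SE 0.06, adjusted p = 3.6e-38). It was lower by less in the second Drd1+ cluster (-0.31, SE 0.08, edgeR adjusted p = 0.000682). The mean log2 ratio of Drd2+ to Drd1+ neurons for Tmem181a was -0.07 (SE 0.03), not called with TMM (edgeR adjusted p = 0.0671) and called by library totals (-0.09, adjusted p = 0.00918). Between these 2 clusters 14.2% of all genes were called higher in Drd2+ neurons and 15.4% lower, and none of the 4 was called with TMM (edgeR adjusted p from 0.0671 to 0.832).

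The order of the 9 tested clusters was set gene by gene from mean log2 CPM, and neighbours were compared with paired sign-flip permutation tests over mice, 32 tests in all. No count filter was applied, so they include clusters where a gene did not pass it. These CPM carry TMM factors set within each cluster, so the scaling between clusters is close to that of library totals, and the tests were repeated with factors set over all clusters together. Glo1 ran from endothelium through oligodendrocytes, astrocytes and macrophages to the neurons and, lowest, the mixed polydendrocyte and oligodendrocyte cluster, and the step from macrophages down to the second Drd1+ cluster passed (mean difference 0.76 log2, 26 of 32 mice, permutation adjusted p = 0.0202). With joint factors that difference was 0.33 log2 and no longer passed (24 of 32 mice, permutation adjusted p = 0.475), and no other Glo1 step did. Alad was highest in endothelium, above oligodendrocytes in 26 of 29 mice by either scaling (permutation adjusted p = 0.0195, and 0.0149 with joint factors). Tmem181a was highest in Drd1+ neurons, above Drd2+ neurons in 28 of 32 mice (mean difference 0.10 log2, permutation adjusted p = 0.0195), and its step from Nxph1+ interneurons down to endothelium passed in 25 of 29 mice (permutation adjusted p = 0.0202). With joint factors the first of these had permutation adjusted p = 0.0553 (23 of 32 mice), the second 0.0149, and the step from Drd2+ neurons down to the second Drd1+ cluster passed (26 of 32 mice, permutation adjusted p = 0.00352). No Acp1 neighbours differed beyond their spread, from 55.1 ± 45.0 CPM in Drd1+ neurons to 28.5 ± 17.4 CPM in macrophages, while with joint factors the step from Drd2+ neurons down to endothelium passed (20 of 29 mice, permutation adjusted p = 0.0430). With a prior count of 0.5 in place of 2 the Tmem181a step between Drd1+ and Drd2+ neurons alone remained (permutation adjusted p = 0.0474).

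The 9 clusters with too few mice for a test were summed over the mice of a strain, with exact Poisson 95% intervals that cover counting error only. In Slc17a7+ neurons, excitatory cells of cortical type, Acp1 had 77 counts in A/J (44.7 CPM of the library total, 35.3 to 55.9), 16 in 129S1/SvImJ (45.3, 25.9 to 73.6) and 34 in C57BL/6 (42.4, 29.3 to 59.2). WSB/EiJ had 12 counts (12.4 CPM, 6.42 to 21.7), and the other low strains had 20.5 to 27.6 CPM. Tmem181a in the same cluster was lowest in WSB/EiJ (33.1 CPM, 22.6 to 46.7) and PWK/PhJ (48.3 CPM, 33.6 to 67.1) and highest in NZO/HlLtJ (193.8 CPM, 154.8 to 239.7) and 129S1/SvImJ (192.7 CPM, 149.7 to 244.3). In Chat+ interneurons, from 120 nuclei, WSB/EiJ had 1 Tmem181a count (13.1 CPM, 0.33 to 73.0) and 129S1/SvImJ 19 (193.4 CPM, 116.5 to 302.1). NZO/HlLtJ had 0 Acp1 counts there, with an upper limit of 33.9 CPM. The low strains CAST/EiJ and WSB/EiJ had 49.8 and 39.3 CPM of Acp1 there, from 4 and 3 counts. A/J, a high strain, had 24.6 CPM from 4 counts. Some other small clusters had other orders too. Acp1 in Sst+ interneurons had 11 counts in all, with 4 in WSB/EiJ, 4 in NZO/HlLtJ and 0 in C57BL/6. In ependyma Acp1 was highest in PWK/PhJ (98.0 CPM, 47.0 to 180.2) and CAST/EiJ (79.3 CPM, 34.2 to 156), low strains in Drd1+ neurons, and lowest in NZO/HlLtJ (15.7 CPM, 4.27 to 40.2). In mural cells Tmem181a was at 75.7 CPM (36.3 to 139) in WSB/EiJ and 55.6 CPM (28.7 to 97.2) in C57BL/6. It was lowest there in PWK/PhJ (20.9 CPM, 4.30 to 61.0) and highest in 129S1/SvImJ (148 CPM, 91.8 to 227). In the first cluster named Unknown it was highest in CAST/EiJ (74.7 CPM, 49.2 to 109) and lowest in WSB/EiJ (19.2 CPM, 5.24 to 49.3). Over all strains pooled Tmem181a was at 119 CPM in the second Slc17a7+ cluster and 114 CPM in Chat+ interneurons, and Acp1 at 56.7 CPM in ependyma. Glo1 was highest in A/J in ependyma (113 CPM, 68.2 to 177), in mural cells (73.3 CPM, 47.0 to 109) and in the first cluster named Unknown (109 CPM, 69.6 to 162), and in CAST/EiJ in Slc17a7+ neurons (38.6 CPM, 27.7 to 52.3). CAST/EiJ, the other high strain, had 49.6 CPM (16.1 to 116) in ependyma and 36.0 CPM (19.2 to 61.5) in that Unknown cluster, within the range of the low strains there. In the second Slc17a7+ cluster Glo1 was highest in NZO/HlLtJ, a low strain (43.4 CPM, 22.4 to 75.8). A/J had 38.2 CPM (27.0 to 52.4) and CAST/EiJ 16.3 CPM (5.98 to 35.5) there. In Sst+ interneurons it was highest in 129S1/SvImJ, from 3 counts. In the second cluster named Unknown Glo1 had 28 counts in 57 nuclei, 16 of them in the 13 nuclei of 129S1/SvImJ. Alad had 3 to 63 counts in each of the 9 clusters over all strains, and its pooled level ran from 8.25 CPM (6.34 to 10.6) in Slc17a7+ neurons to 27.6 CPM (11.1 to 56.8) in fibroblasts.

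The genes beside Glo1 on chromosome 17 were examined for the same strains. Btbd9, which lies 10240 bases away and encodes a BTB-domain protein, had the pattern most like Glo1 in Drd1+ neurons (Pearson r = 0.91 over 32 mice, log2 CPM centred by batch). Its means there were 481 ± 50.4 CPM in CAST/EiJ, 406 ± 25.7 CPM in A/J and 306 ± 52.6 CPM in 129S1/SvImJ, above the other 5 strains at 184 to 211 CPM. Dnah8, an axonemal dynein heavy chain gene 14276 bases away, had 21.4 ± 4.65 CPM in CAST/EiJ and 6.35 ± 1.36 CPM in A/J, against at most 2.63 CPM elsewhere (r = 0.88). Glp1r, the receptor of the gut hormone GLP-1 and 289208 bases away, departed from this: it had 6.57 ± 2.27 CPM in A/J and 0.102 ± 0.203 CPM in CAST/EiJ. Zfand3 (r = 0.32) and Mdga1 (r = -0.03), on the far side of Btbd9, did not follow Glo1.

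Btbd9 was called in the second Drd1+ cluster and Glo1 was not. Btbd9 had 817 ± 102 CPM in CAST/EiJ, 557 ± 40.5 CPM in A/J and 450 ± 81.6 CPM in 129S1/SvImJ against 203 to 280 CPM in the rest (edgeR adjusted p = 3.2e-22), beside edgeR adjusted p = 0.989 for Glo1. The difference between the genes was not tested, and no change of the Glo1 pattern from Drd1+ neurons was called (edgeR adjusted p = 0.308). Dnah8 there was 41.4 ± 7.54 CPM in CAST/EiJ and 8.61 ± 1.84 CPM in A/J. In oligodendrocytes Dnah8 had another order, highest in NOD/ShiLtJ (24.2 ± 7.58 CPM) and 129S1/SvImJ (17.05 ± 5.68 CPM), and its interaction with cluster was called (edgeR adjusted p = 3.2e-14).

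**Figure D5:**
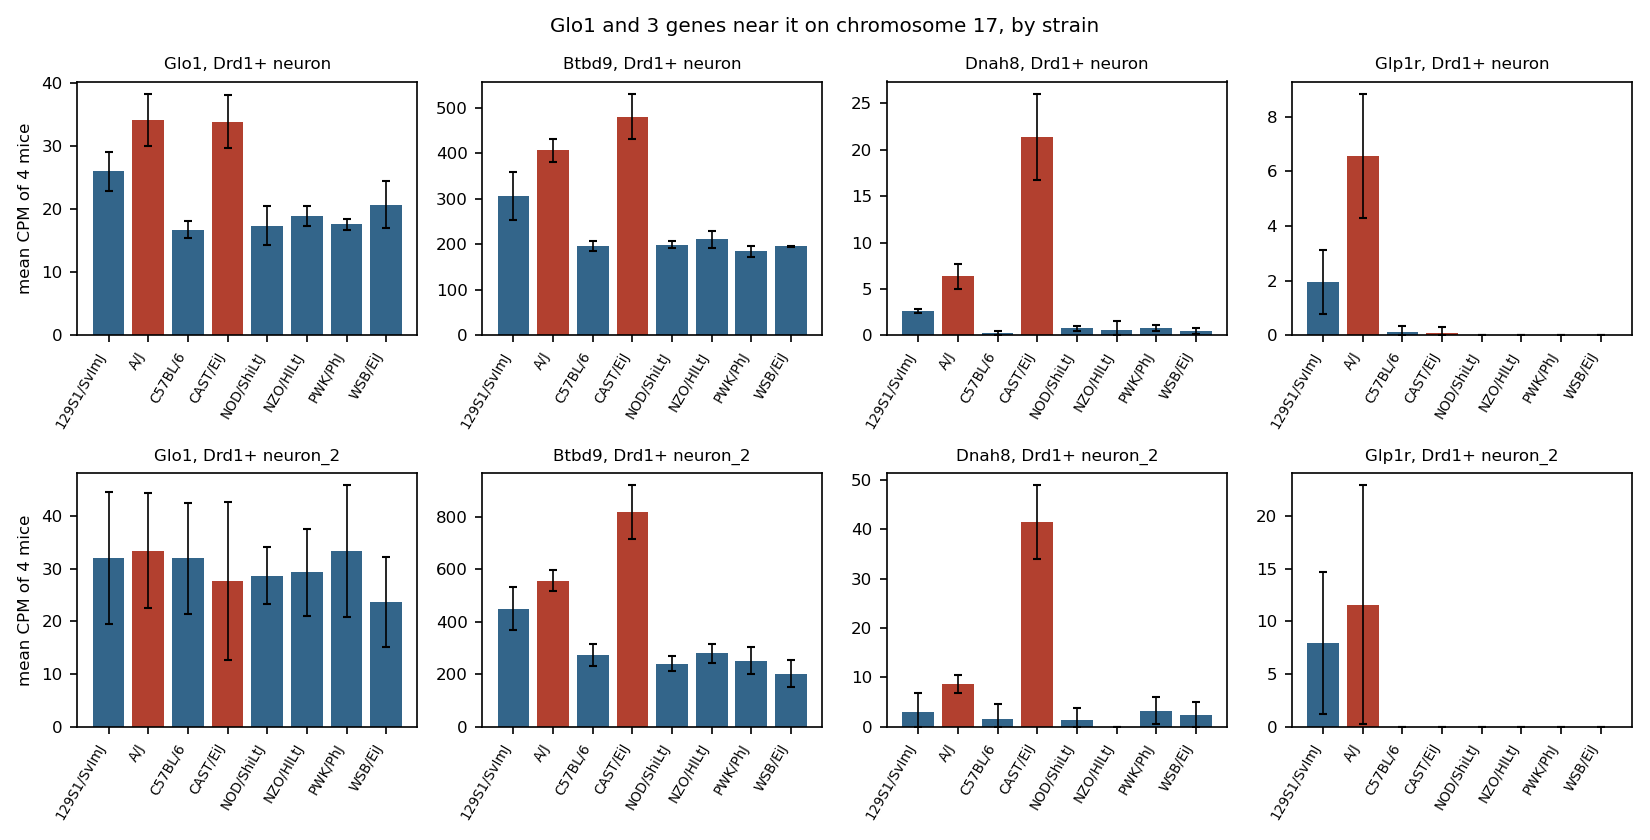
Mean level (bars, CPM, ± SD of 4 mice, lower ends stopped at 0) of Glo1 and its chromosome 17 neighbours Btbd9, Dnah8 and Glp1r by strain in Drd1+ neurons and the second Drd1+ cluster; red marks A/J and CAST/EiJ, and y axes differ between panels. Btbd9 and Dnah8 are highest in CAST/EiJ in both clusters, Glp1r is high in A/J and near 0 in CAST/EiJ, and the Glo1 means in the second Drd1+ cluster lie between 23.6 and 33.4 CPM.

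The strain term in Drd1+ neurons, called for 61.7% of all genes, was called for 6 of 6 tested neighbours of Glo1, 3 of 7 of Alad, 4 of 4 of Acp1 and 7 of 9 of Tmem181a, and nothing is read from these counts. The 3 near Alad were Slc31a2 (edgeR adjusted p = 2.9e-09), Cdc26 (adjusted p = 0.000225) and Fkbp15 (adjusted p = 0.00711). Pole3, 3735 bases away, was not (edgeR adjusted p = 0.781), nor were Wdr31, Prpf4 and Slc31a1, and the 7 had r between -0.31 and 0.27 with Alad. Acp1 starts 50 bases from Sh3yl1, whose r was -0.32, with strain means of 4.92 to 8.92 CPM for Sh3yl1. Farther off, Myt1l, a neuronal zinc finger gene, had r = 0.66, Sntg2 r = -0.61 and Tmem18 r = -0.39 with Acp1. Alkal2 overlaps 531 bases of Acp1 and was too low to test. Around Tmem181a, Dynlt1f (r = 0.71), Synj2 (r = 0.62) and Dynlt1a (r = 0.52) were the most alike, and Tulp4, 16089 bases away, was not (r = 0.01). Dynlt1a, a dynein light chain gene, overlaps 1971 bases of Tmem181a, and the strand setting of the counting is not given in the sources used here, so reads in the shared stretch cannot be assigned to either gene with certainty. The related copies Tmem181b-ps and Tmem181c-ps lie on the same chromosome and are not among the rows used here, so counts of Tmem181a may include reads of these copies or miss reads that fit more than 1 copy. Over the 11046 genes compared, those most like the others were Exd2 for Alad (r = 0.78), Tctn1 and Sav1 for Acp1 (r = 0.80 and 0.79) and Izumo4 for Tmem181a (r = 0.88). These correlations over the same 32 mice share libraries and strain structure and are given as a description. Izumo4 was at 4.28 ± 1.07 CPM in WSB/EiJ and 13.3 ± 1.24 CPM in PWK/PhJ against 22.4 to 30.8 CPM in the other 6 strains, the same low set as Tmem181a.

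The partner genes of the members in their pathways were examined in the same fit of Drd1+ neurons. Of 10 tested genes of methylglyoxal clearance and glycolysis, 3 were called (Hagh, Park7 and Pfkp), with a median log2 span of strain means of 0.37 against 0.65 over all genes. Hagh, the second glyoxalase, ran from 24.1 ± 2.18 CPM in C57BL/6 to 46.7 ± 7.92 CPM in WSB/EiJ, strains that are both low for Glo1 (edgeR adjusted p = 5.4e-07). Of 16 heme genes 10 were called (median span 0.59). Of 15 phosphatases, kinases and flavin genes 11 were called (median span 0.45), and of 6 GOLD-domain genes 3 (median span 0.62). Gpr180, a member of that family, ran from 13.8 ± 1.86 CPM in 129S1/SvImJ to 59.0 ± 12.5 CPM in CAST/EiJ (edgeR adjusted p = 1.4e-14). These shares stand beside 61.7% over all genes.

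Most partners of Glo1, though not Hagh, were, like Glo1 itself, higher in oligodendrocytes and astrocytes than in Drd1+ neurons. In oligodendrocytes, where 39.6% of all genes were called higher and 44.6% lower, 8 of 10 genes of its list were called higher than in Drd1+ neurons and 1 lower (median log2 0.94 against -0.05 for all genes). In astrocytes (37.6% and 42% of all genes) these were 7 and 2 (median 0.69 against -0.06) and in macrophages (25.8% and 46.2%) 7 and 1. In macrophages 7 of the 10 passed the count filter by themselves, and of those 7 these were 5 and 0. That filter favours genes high in the cluster, and the shares of all genes are without it. Gapdh (log2 1.10), Aldoc (1.42), Aldoa (0.96) and Akr1a1 (0.92), which reduces aldehydes, were among those higher in oligodendrocytes, and Pfkp, a phosphofructokinase, was the lower one (-2.77). Hagh was not called in oligodendrocytes (log2 0.08, edgeR adjusted p = 0.211) and was called lower in astrocytes (-0.24, adjusted p = 0.00758). Of the 16 heme genes tested, 9 were called higher in oligodendrocytes and 6 lower. Of the 10 that passed the count filter there by themselves, 7 were called higher and 2 lower. Cpox, a later enzyme of the pathway, was at 224 CPM against 12.4 CPM (log2 3.85, edgeR adjusted p = 2.2e-70). In the phosphatase list 5 of 15 were higher and 8 lower there, near the shares of all genes, with Ptpn5, the striatal-enriched phosphatase, at -2.95 (edgeR adjusted p = 1.5e-23). Interactions of strain with cluster, between Drd1+ neurons and oligodendrocytes, were called for 2 of 10 genes of the Glo1 list, 2 of the 10 heme genes, 3 of 15 in the phosphatase list and 1 of 6 in the GOLD-domain list, beside 16.9% of all genes.

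RNA from projection neurons was present in the glial libraries, and its amount was set beside the results. The 8 markers of Drd1+ and Drd2+ neurons (Drd1, Tac1, Pdyn, Isl1, Drd2, Adora2a, Penk and Gpr6) summed to a median of 388 CPM in oligodendrocytes, 355 in astrocytes and 432 in macrophages, against 750 in Drd1+ and 1842 in Drd2+ neurons. Strain means of that sum ran from 367 to 411 CPM in oligodendrocytes and from 330 to 392 CPM in astrocytes. Single markers reached 3.47% to 33.8% of their own cluster's level in oligodendrocytes (median 14.1%) and 3.39% to 29.8% in astrocytes (median 15.5%). The mean level of the members in oligodendrocytes, as a share of that in Drd1+ neurons, was 55.4% for Acp1, 34.6% for Tmem181a, 160% for Alad and 286% for Glo1. In astrocytes it was 69.8% for Acp1 and 25.2% for Tmem181a, and in the second Drd1+ cluster 50.6% and 90.1%. The Drd2+ neuron markers reached 4.58% (Drd2) to 26.4% (Penk) of their own cluster's level in the second Drd1+ cluster. Nuclei of 8 strains were loaded together in a batch, and which mouse the projection neuron RNA came from was not determined. The part of this RNA in the strain patterns of glia and of the second Drd1+ cluster was not tested.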

How the data were processed

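RNA counts of nuclei from 32 mice (8 strains, 4 batches) were analysed. Per the labels and the submitters' processing notes, the authors made counts of UMIs per gene and barcode with Cell Ranger ARC 2.0.0 on GRCm38 (mm10), after bcl2fastq 2.20.0.422, and deposited them with no normalization. Per the labels, the authors assigned nuclei to strains with Demuxlet, kept those with over 200 and under 7500 genes and under 15% mitochondrial counts, and removed doublets with DoubletFinder. The deposited table of barcodes gives the strain calls and cluster names as categories (other, no measured unit), which were used as they stand, and no further filter or doublet caller was applied. The deposited list of accessible regions gives positions only, and the matrix of regions by nuclei was not analysed here. The counting strand is not given in the sources used here.

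Counts were summed per mouse and cluster (at least 10 nuclei). Tests were run in the 9 of 18 clusters that had 3 or more such mice in each strain. edgeR 4.0.16 (R 4.3.3; filterByExpr, TMM, robust quasi-likelihood) tested the strain term (7 degrees of freedom) with batch as a covariate. It also tested, for Drd1+ neurons and 1 of 5 other clusters, the interaction of strain and cluster and the mean cluster effect, with the mouse as a block. The pairing comes from the design: both libraries are of the same mouse, and a batch number marks mice pooled and processed together. P-values were adjusted by Benjamini-Hochberg over all genes, and called means under 0.05. Nothing names the mice of a strain as litters or repeats, so p-values measure the spread between these mice, and depth sets their precision, which is low in macrophages and the small clusters. CPM are counts per 1e+06 over the library total times its TMM factor; pooled CPM use the plain total. The order of clusters used log2 CPM with a prior count of 2 and 100000 sign flips (two-sided). Alternatives were median-of-ratios scaling, no filter, at least 20 nuclei, no block, DESeq2 1.42.0, counts thinned to equal depth, limma 3.58.1 (voom), a prior count of 0.5, leaving out each batch, and, chosen after seeing the data, library totals with no TMM factors, TMM over all clusters together for the order, and Drd2+ in place of Drd1+ neurons as the reference of the interaction. The edgeR tests of a gene between clusters are given only where it passed the filter in the other cluster by itself. The tests of cluster order and some counts over partner lists are without that filter. edgeR and these scripts were tested on simulated data. Figures used matplotlib 3.10.9.

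The members, the partner lists and the neighbour lists were chosen with earlier results of these data known. Genes named beside them are, by rule, the 3 genes per member with the highest Pearson r in Drd1+ neurons among those of at least 5 CPM, the 3 nearest genes on either side and fixed neighbour lists. Within the pathway lists, examples were chosen after their values were seen.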

Additional observations from a re-analysis of the deposited data

Results flagged for a closer look

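Strain groups of 4 mice were examined for a mouse far from the other 3, by the gap to the nearest mouse over the whole range of the group, and 9 of 128 groups passed the 95% critical value of Dixon's test. Chance flags about 1 in 20 such groups. The groups did not cover all the clusters tested, and those flagged lay in Drd1+ neurons, Drd2+ neurons, oligodendrocytes and astrocytes. For Tmem181a, the 129S1/SvImJ mouse of batch 3 was high in Drd1+ neurons (257 CPM, next 204) and in Drd2+ neurons (250.4 CPM, next 203), and in Drd2+ neurons the NZO/HlLtJ mouse of batch 3 was high (177 CPM, next 124). Also in Drd2+ neurons, single low Tmem181a mice were found in PWK/PhJ (22.0 CPM, next 30.6) and WSB/EiJ (13.2 CPM, next 20.9). Glo1 had a low CAST/EiJ mouse in Drd1+ neurons (27.6 CPM, next 35.5) and a low WSB/EiJ mouse in oligodendrocytes (18.6 CPM, next 58.2). Acp1 had a high A/J mouse in oligodendrocytes (51.0 CPM, next 36.1), and Alad a high CAST/EiJ mouse in astrocytes (22.4 CPM, next 7.86).

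Strain patterns that differed from Drd1+ neurons by the test of the interaction were those of Acp1 in oligodendrocytes (edgeR adjusted p = 3.46e-15), the second Drd1+ cluster (3.06e-09) and astrocytes (0.000182). Those of Tmem181a were in oligodendrocytes (edgeR adjusted p = 9.38e-11) and astrocytes (0.000995). All 5 share the Drd1+ values by which the genes were chosen, and all 5 were also called against Drd2+ neurons.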

How the results depend on the processing

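Among the tests of the 4 genes, no called value changed sign under any alternative that gave a value. Of these values, 331 kept their side of the threshold, 3 passed it only under an alternative, 2 lost it and 5 counts moved, beside those that leave out a batch, of which 246 kept it and 10 lost it. Library totals gave levels of adjusted p = 0.122 for Acp1 in astrocytes and 0.00918 for Tmem181a in Drd2+ neurons (edgeR), and turned the Alad value in macrophages, where it was below the count filter, from log2 -0.09 to 0.65. Endothelial Acp1 had adjusted p = 0.00726 with no filter and 0.0371 by DESeq2. The Glo1 level in the second Drd1+ cluster had edgeR adjusted p = 0.320 with no filter and 0.0484 to 0.380 over the left-out batches. Leaving out a batch gave 0.0143 to 0.467 for the endothelial strain term of Glo1, 0.0272 to 0.141 for that of Tmem181a and 0.00183 to 0.0987 for the interaction of Acp1 between Drd2+ neurons and astrocytes. With Drd2+ in place of Drd1+ neurons as the reference no interaction changed its side of the threshold. With a prior count of 0.5, differing neighbours in the cluster order went from 1 to 0 for Glo1, from 1 to 0 for Alad and from 2 to 1 for Tmem181a; with TMM factors over all clusters together they went from 1 to 0 for Glo1 and from 0 to 1 for Acp1. The cause was not tested.

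Without the replicate block no call of the 4 genes changed: the Acp1 interaction in oligodendrocytes had edgeR adjusted p = 3.28e-14 and, with Drd2+ neurons as the reference, 1.12e-12. Without the block the interaction of Drd2+ neurons called 69 genes in place of 631, that of the second Drd1+ cluster 307 in place of 529, the level in Drd2+ neurons 2530 in place of 4076 and the endothelial strain term 71 in place of 161.

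Over all alternatives, the count of called genes differed by more than 1.5 times for the strain term in astrocytes (1767, lowest 1138), the second Drd1+ cluster (958, lowest 628), Nxph1+ interneurons (61, range 24 to 468), endothelium (161, range 63 to 527) and the mixed polydendrocyte cluster (26, range 6 to 221). For the interaction it did so in Drd2+ neurons (631, lowest 69), oligodendrocytes (2352, lowest 1440), astrocytes (1633, lowest 738), macrophages (1189, lowest 291) and the second Drd1+ cluster (529, lowest 299), and for the level in Drd2+ neurons (4076, lowest 2530). The mixed cluster could not be fitted at 20 nuclei or more. Summing Tmem181a with its copies was not run, since the copies are not among the rows used here. A term for sex was not run either: the sources do not name the sex of a given mouse, and it was not read from the counts. Counts of Alad were low, and in the mixed polydendrocyte cluster none of the 4 genes passed the count filter.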
